A study of Mus musculus with 3 samples.

Results

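The mitochondrial ribosomal proteins described here are the 77 genes, of 27998 in the deposited matrices, whose symbols begin with Mrpl or Mrps and a number and which are not marked as pseudogenes. Their transcripts were followed in CD133+ cells sorted from mouse bone marrow, in bands of the neutrophil precursor gene Mpo, beside the 79 cytosolic ribosomal proteins. By symbol and textbook position, 28 members belong to the large subunit and have a bacterial counterpart, 22 belong to the large subunit and have none, 14 belong to the small subunit and have one, and 12 belong to the small subunit and have none. Mrps36 carries the same kind of symbol but is a part of the 2-oxoglutarate dehydrogenase complex, not of the mitoribosome. Mrps18a and Mrps30 sit in the large subunit despite their symbols and were grouped there. The split follows mainly the number in the symbol and was not checked against protein sequences. Members without a counterpart here therefore still include relatives of bacterial proteins, such as Mrps18a and Mrps18b (S18) and Mrps28 (S1).

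The mitoribosome is the ribosome of the mitochondrial matrix, and it makes only the few proteins that the mitochondrial genome encodes, all of them subunits of the respiratory chain or of ATP synthase. Its proteins are encoded in the nucleus, made in the cytosol by cytosolic ribosomes and imported, while its RNAs come from the mitochondrial genome. Neutrophil precursors begin as dividing promyelocytes that fill with primary granules, whose proteins include myeloperoxidase (Mpo) and neutrophil elastase (Elane), and they later turn to the proteins of secondary and tertiary granules such as Camp, Ltf and Mmp8. Mature neutrophils hold few mitochondria and rely largely on glycolysis.

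The series holds 3 libraries, labelled control, young and old, each made with the Chromium 3′ single-cell kit from CD133+ bone marrow cells of 3 pooled C57BL/6 mice. The labels give 3 months as the age of the control and the young mice and 27 months for the old mice, for which the series text gives 18.5 months. No genotype or treatment was found in the labels for any of the 3 groups, and what sets the control library apart from the young one is not stated there. With 1 library per group there are no replicates and no test, so that age, library, pool of mice and depth cannot be told apart, and all intervals cover counting error only.

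After the limits on cell quality, 9694 control, 6638 young and 9586 old cells were used, with medians of 9593.5, 10319 and 12702 unique molecular identifiers (UMIs, each standing for 1 captured mRNA molecule). Cells with at least 3 markers and 5 UMIs of another blood cell type had been set aside, which took 86 control, 740 young and 95 old cells, and 421 of the young ones carried monocyte markers. The promyelocyte markers Mpo, Elane, Prtn3 and Ctsg and the later neutrophil markers Retnlg, Mmp8, Mmp9, Cxcr2, Ltf and Camp were all at 10 CPM (UMIs of the gene per 1000000 UMIs) or more in every library. The study names these cells endothelial-like on the basis of pseudo-time, uptake of lipoprotein and Ulex agglutinin, and tube-like structures in Matrigel plugs. These plugs held cells with CD31 (Pecam1) and VE-cadherin (Cdh5). It also rests on recovery of blood flow and on labelled donor cells traced into the endothelium of muscle and heart. It reports hardly any CD31 and VE-cadherin in a cluster of public marrow data that it equates with these cells. In CD133+ cells it reports high VEGFR2 (Kdr). Here the 5 endothelial markers Cdh5, Pecam1, Kdr, Emcn and Tie1 together reached 2.36 to 3.23 CPM. Prom1, the gene of CD133, stood at 45.9 to 52.8 CPM. The markers of the 6 other blood cell types summed highest in young for each type. Of these, Nkg7, a granule protein gene of NK and T cells, stood at 429 to 745 CPM. The next highest, the mast cell protease gene Mcpt8, stood at 25.2 CPM in young. The NK and T cell markers, nearly all of them Nkg7, were higher in cells with more Mpo. From the lowest to the highest band of Mpo, defined below, they went from 181 to 2126 CPM in control, 202 to 2200 in young and 130 to 1780 in old. The part of these markers in the results below was not tested. The libraries shared 120 to 161 barcodes in pairs, at most 1.52% of the smaller library.

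Cells were divided by their own Mpo content into 4 bands, with fewer than 2 Mpo UMIs per 10000 UMIs (the lowest band), 2 to below 10 (the second), 10 to below 50 (the third) and 50 or more (the highest). From lowest to highest, control had 1413, 5680, 1351 and 1250 cells, young 1234, 3487, 704 and 1213, and old 2328, 5043, 1381 and 834. Elane followed the same order in every library, whereas Camp was lowest in the highest band. Among the 186 young cells set aside for B, NK or T cell markers, which should not express Mpo, the median was 2.80 Mpo UMIs per 10000, and 104 of them would have fallen in the second band and 61 in the lowest. The other 21 held 10 or more, as did 2 of 13 such cells in control, so this Mpo was not confined to the lower bands. The lowest and the second band therefore differ by an amount of Mpo that cells of other types also held, and the comparison below sets the highest band against the lowest.

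GENCODE M21, on the GRCm38 (mm10) build, places all 77 members on 17 chromosomes. The starts of 18 members (23.4%) lay at most 1000 bases from an upstream start of a protein-coding gene that runs the other way. Of the 21554 protein-coding genes in the files, 6.84% had such a neighbour. Pairs that overlap at their starts were not counted. Mrpl49 is such a neighbour of Fau, a cytosolic ribosomal protein gene, at 59 bases, and Mrps12 of Sars2, the mitochondrial seryl-tRNA synthetase, at 172 bases. Mrps11 and Mrpl46, 1 protein of each subunit, overlap at their starts on opposite strands and so are not among the 18. In all, 41 members overlap another annotated gene, 35 of them on the other strand. Whether strand was used in the counting is not stated in the sources used here. Mrpl23, Mrpl48 and Mrps36 have 5 annotated pseudogenes named after them, with which their reads may be shared, so their counts are less certain. Pseudogenes under other names were not searched for, so the counts of other members may be affected too.

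RefSeq windows from 250 bases before to 50 bases after the start were at hand for 68 members (74 windows). The NRF1 core GCATGCGC, on either strand, was found in 10.8% of the members' windows, 4.41% of those of cytosolic ribosomal proteins and 2.71% of all 32851 windows. NRF1 is known as a regulator of nuclear genes for mitochondrial proteins. The ETS motif CCGGAAGT was found in 16.2% of the members' windows, 16.2% of the cytosolic ones and 3.89% of all. For the YY1 motif AAGATGGCG the shares were 10.8%, 7.35% and 1.40%. The E-box CACGTG (9.46%, 11.8% and 7.15%) and CCAAT (40.5%, 30.9% and 37.4%) differed less, and the TATA motif TATAAA was found in 6.76% of the members' windows and 13.6% of all. None of the 6 motifs contains another, and each was counted on its own.

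The upstream stretches below, from RefSeq on GRCm38.p6 and cut where an annotated exon of any gene begins, belong to members at the ends of the range described next. Mrpl12 had one of the steepest courses over the bands (chr11:120484387-120484612, plus strand), and Mrpl10 (chr11:97041408-97041559, plus), Mrpl33 (chr5:31613701-31613938, plus) and Mrpl43 (chr19:45006443-45006557, minus) had among the shallowest. Mrpl52 (chr14:54426659-54426908, plus) was the member that left the common course. Each runs 5′ to 3′ on the strand of its gene, and capitals mark the motifs searched.
Mrpl12: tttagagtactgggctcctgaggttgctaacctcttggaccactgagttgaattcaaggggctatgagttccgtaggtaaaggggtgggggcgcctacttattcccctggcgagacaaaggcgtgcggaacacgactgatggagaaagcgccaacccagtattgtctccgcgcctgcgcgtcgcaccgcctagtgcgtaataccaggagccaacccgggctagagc
Mrpl10: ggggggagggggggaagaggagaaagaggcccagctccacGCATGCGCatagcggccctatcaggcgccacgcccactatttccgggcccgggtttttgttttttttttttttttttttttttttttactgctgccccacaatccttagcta
Mrpl33: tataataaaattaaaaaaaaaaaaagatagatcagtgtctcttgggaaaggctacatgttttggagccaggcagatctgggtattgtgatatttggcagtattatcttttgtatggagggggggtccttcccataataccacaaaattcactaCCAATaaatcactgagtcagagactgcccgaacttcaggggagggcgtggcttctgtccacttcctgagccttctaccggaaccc
Mrpl43: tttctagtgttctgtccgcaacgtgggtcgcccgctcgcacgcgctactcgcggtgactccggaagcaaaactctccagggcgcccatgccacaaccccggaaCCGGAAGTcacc
Mrpl52: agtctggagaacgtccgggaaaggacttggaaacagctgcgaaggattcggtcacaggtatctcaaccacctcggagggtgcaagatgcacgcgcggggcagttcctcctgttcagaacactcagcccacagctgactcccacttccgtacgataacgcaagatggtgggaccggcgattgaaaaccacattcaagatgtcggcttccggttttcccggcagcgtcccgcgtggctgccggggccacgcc
The motifs were searched in the whole windows, of which these stretches show a part. Mrpl10, with a shallow course, has the NRF1 core 134 bases before its start, and Mrpl12, with a steep one, has none of the 6 motifs in its window. Among members not printed here the reverse was found. Mrps18b, with a steep course, has the NRF1 core 223 bases before and 28 bases after its start, and Mrpl57, with a shallow one, has no motif. A link between motifs and course was not tested. Mrpl33 has CCAAT 97 bases before its start and, past the end of the printed stretch, the NRF1 core 12 bases and the ETS motif 3 bases before it. Mrpl43 has the ETS motif 12 bases before its start, and Mrpl52 has it at the start itself, past the printed stretch. A match of letters is a description only.

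In the cells as a whole, the 77 members together held 5776 CPM in control (95% interval 5761 to 5792), 5097 in young (5080 to 5114) and 4984 in old (4971 to 4997). This was 0.578%, 0.510% and 0.498% of all UMIs, or 56.8, 52.1 and 61.6 UMIs per cell. The order of old and young thus turned with the unit, since the old cells held more UMIs each. Cytosolic ribosomal proteins held 109044, 108178 and 123513 CPM. Of the members, 73 reached 10 CPM in at least 1 library, and Mrps2, Mrpl53, Mrps27 and Mrps6 did not. Each UMI counts the 3′ end of 1 molecule, so a level here does not grow with the length of the transcript, but it does depend on how well a given 3′ end is captured.

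The level of single members varied widely. Mrpl33, a small protein of the large subunit, was the highest, with 427 CPM in control, 435 in young and 467 in old. Mrps14, a protein of the small-subunit head, followed with 283, 245 and 217 CPM. Mrpl18, whose bacterial counterpart binds 5S rRNA, had 262, 224 and 227 CPM, Mrps21 had 237, 228 and 224, and Mrps18c had 215, 202 and 223. The order of these members was not the same in every library, since Mrps14 was second in control and in young but stood below Mrpl18, Mrps21 and Mrps18c in old.

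The members were higher in cells with more Mpo, in each library. Their summed level in the lowest, the second, the third and the highest band was 4279, 4596, 7124 and 9758 CPM in control. In young it was 3882, 4105, 5708 and 8019 CPM, and in old 3781, 4171, 6576 and 8979 CPM. The step was small between the lowest and the second band and large above it. Per cell, the lowest and the highest band held 37.3 and 119 UMIs in control, 35.5 and 95.3 in young, and 42.5 and 130 in old. Without Mrps36, the small subunit gave between 33.2% and 35.2% of the UMIs of the other 76 members in every band and library, so both subunits followed the same course. The median UMI count per cell was also higher in the highest than in the lowest band, 12821 against 8219.0 in control, and its part in the share was not tested.

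**Figure D1:**
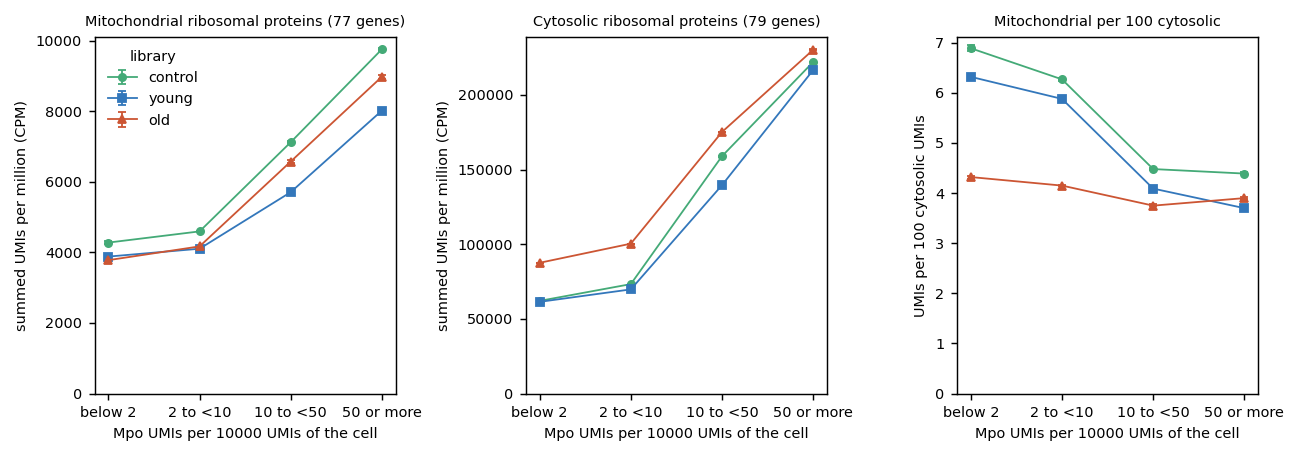
Summed CPM of the 77 mitochondrial and 79 cytosolic ribosomal proteins, and mitochondrial UMIs per 100 cytosolic UMIs, in 4 bands of Mpo (x axis, UMIs per 10000 UMIs of the cell) for the control, young and old library. Bars are exact 95% intervals of counting error. Both sums are higher with more Mpo in each library, and in the right panel old stays between 3.75 and 4.32 while control runs from 6.89 to 4.39 and young from 6.32 to 3.70.

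Among members with at least 10 CPM in either band, 71 of 76 were at least 1.5 times higher in the highest than in the lowest band in control, where 53.8% of the 6161 genes tested were, and 0 were lower by that size, against 10.8% of genes. In young, 70 of 73 were higher, against 54.1% of genes, and 0 lower, against 7.99%. In old, 70 of 73 were higher, against 55.4%, and 0 lower, against 10.2%. The median log2 ratio of the members was 1.36 in control, 1.14 in young and 1.34 in old, and that of all genes tested 0.67, 0.66 and 0.70. A minimum met in the highest band alone favours members that were higher there, which 9 to 10 members per library did. Over all 77 members with no minimum, the ratio was above 0 for all 77 in each library, with medians of 1.35, 1.15 and 1.35. Its interval lay above 0 for 76, 77 and 77. Of all genes with at least 10 CPM in either band, 4690 of 6161, 5038 of 6332 and 4647 of 6066 were above 0.

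A few granule genes hold a large part of the UMIs of the lower bands, so the total matters for these shares. With the 50 leading genes left out of the total, the median ratio of all genes was -0.18, -0.12 and -0.046 in control, young and old, and the share of higher among the genes past 1.5 times fell from 83.3%, 87.1% and 84.5% to 41.3%, 43.0% and 47.9%. The members' median was then 0.60, 0.42 and 0.68, with 39 of 76, 29 of 75 and 44 of 76 members higher by 1.5 times, where 22.9%, 20.9% and 26.3% of all genes tested were. It stood 0.77, 0.54 and 0.72 above the median of all genes, compared with 0.69, 0.48 and 0.64 on the full total. The smaller total shifts the log2 ratio of every gene alike, so this distance changed only through which genes reached 10 CPM. The direction of the members' median was thus the same on both totals, while its size was not.

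Cytosolic ribosomal proteins had a larger ratio between the bands in the libraries of 3 months. Their median log2 ratio was 1.89 in control and 1.85 in young, and 1.40 in old, where the members had 1.34. All 79 passed 1.5 times in control and in young and 77 did in old. Rpl12 had the largest mean ratio, with 155 and 1024 CPM in the lowest and highest band in control, and Rps9 the smallest, with 1643 and 2783. Their summed level in the highest band was alike in the 3 libraries, at 222032, 216628 and 230202 CPM, whereas in the lowest band it was 62071 in control, 61418 in young and 87577 in old. As a result, mitochondrial UMIs per 100 cytosolic UMIs, a ratio that does not depend on the total, went from 6.89 in the lowest to 4.39 in the highest band in control and from 6.32 to 3.70 in young. In old they were 4.32, 4.15, 3.75 and 3.90 from lowest to highest. In the lowest band old thus stood 1.41-fold and 1.43-fold above control and young in the summed cytosolic ribosomal proteins, and at 0.884 and 0.974 times their level in the mitochondrial ones.

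The roles here are those of the split by symbol. The median log2 band ratio was 1.37 in control, 1.21 in young and 1.34 in old for large-subunit members with a bacterial counterpart. It was 1.17, 1.14 and 1.27 for large-subunit members without one. Among small-subunit members it was 1.14, 0.97 and 1.30 for those with a counterpart and 1.47, 1.15 and 1.53 for those without. In no role was a member lower by 1.5 times in any library. Mrps36, which belongs to another complex, had 38.9 CPM in the lowest and 141 in the highest band in control, 35.0 and 115 in young, and 33.6 and 134 in old.

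**Figure D2:**
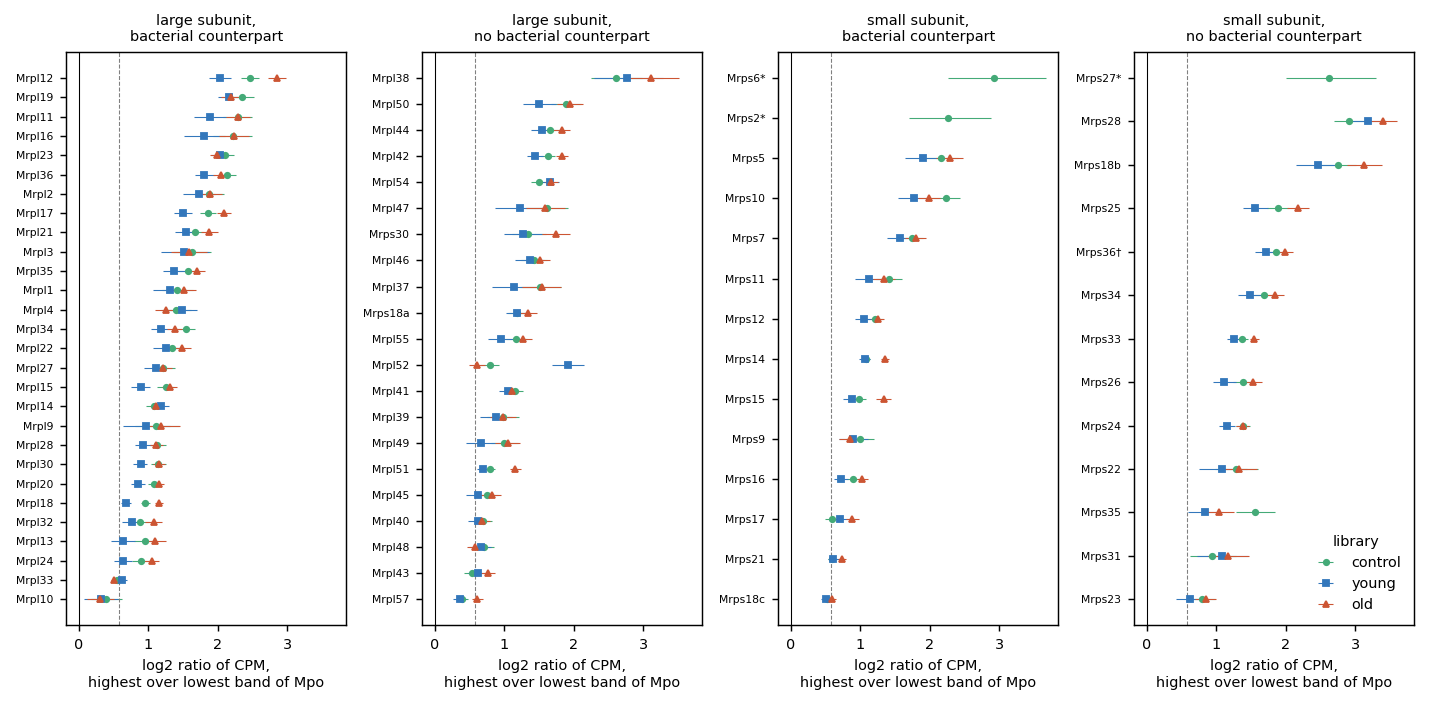
Log2 ratio of CPM, highest over lowest band of Mpo, for each member in the control, young and old library, by role and sorted by the mean ratio. Bars are exact 95% intervals of counting error and the dashed line marks 1.5 times. A member under 10 CPM in both bands of a library has no point there, an asterisk marks members under 10 CPM in every library as a whole, and the dagger marks Mrps36. All points lie above 0, from near 0.3 for Mrpl10 to 3.40 for Mrps28 in old.

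Among members with at least 10 CPM in a library, Mrps28 had the steepest course. It had 14.8, 21, 72.8 and 111 CPM from the lowest to the highest band in control, 11.2, 13.3, 37.7 and 101 in young, and 9.32, 12.5, 56.3 and 98.3 in old. The highest band was thus 7.53-fold, 9.06-fold and 10.5-fold above the lowest. Mrps6, which did not reach 10 CPM in any library, stood 7.62-fold (4.79 to 12.8), 6.33-fold (3.55 to 12.3) and 14.1-fold (8.28 to 25.5) higher in the highest band, on 20, 13 and 16 UMIs in the lowest. Mrpl38, a large-subunit protein at a low level, had 5.68 CPM in the lowest and 34.7 in the highest band in control (70 and 528 UMIs), 3.45 and 23.5 in young, and 2.64 and 22.8 in old. Mrpl19, a large-subunit protein with a bacterial counterpart, had 26.8 and 137 CPM in control, 27.9 and 126 in young, and 26.1 and 119 in old, so that its ratio of 5.10, 4.51 and 4.55-fold was much the same in the 3 libraries.

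Mrpl12 and Mrpl10, proteins of the stalk, the arm of the large subunit that recruits translation factors, stood toward opposite ends of the range. Mrpl12, which in its bacterial form is present in several copies on the stalk, had 45.3, 51.0, 132 and 250 CPM from the lowest to the highest band in control, 34.4, 40.6, 72.2 and 140 in young, and 23.5, 26.6, 70.3 and 170 in old. The highest band was 5.53-fold, 4.07-fold and 7.24-fold above the lowest. Mrpl10, which holds Mrpl12 on the ribosome, had 21.4, 21.3, 24.4 and 28.3 CPM in control, 20.5, 20.1, 25.7 and 25.7 in young, and 23.0, 23.7, 26.0 and 28.6 in old. Its log2 ratio of 0.40 (0.18 to 0.63), 0.32 (0.081 to 0.57) and 0.31 (0.12 to 0.51) was the lowest mean ratio among the members. Both overlap a gene on the other strand, Mrpl10 with Gm11574 and Mrpl12 with Gm16755.

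The other members with a shallow course were at high or moderate levels. Mrpl57 had 153 and 201 CPM in the lowest and highest band in control, 144 and 184 in young, and 135 and 207 in old. Mrpl33 had 384 and 563 CPM in control, 380 and 590 in young, and 434 and 617 in old. Mrpl43, which overlaps the start of Twnk, the mitochondrial DNA helicase gene, had 68.5 and 99.4 CPM in control, 57.5 and 88.3 in young, and 60.7 and 103 in old. None of these members was lower in the highest band, and their folds of 1.28 to 1.70 lay around the limit of 1.5 times.

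The 3 relatives of bacterial S18 also differed among themselves. Mrps18c, the closest relative in the small subunit, had 182 CPM in the lowest and 262 in the highest band in control, 177 and 251 in young, and 188 and 282 in old, a fold of 1.44, 1.42 and 1.5. Mrps18a, which sits in the large subunit, had 47.4 and 108 CPM in control, 39.0 and 88.4 in young, and 39.2 and 99.5 in old, a fold of 2.29, 2.26 and 2.54. Mrps18b, another small-subunit protein, had 11.9 and 80.6 CPM in control, 8.67 and 47.6 in young, and 6.42 and 56.4 in old, a fold of 6.76, 5.49 and 8.78. The order of the 3 was the same in every library in both bands for the level and reversed for the ratio between bands, with Mrps18c highest in level and lowest in ratio. Mrps18c lies head to head with Helq at 29 bases and Mrps18b with Ppp1r10 at 45 bases.

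Over the 12 values of 4 bands in 3 libraries, the log2 level of a member correlated with the median of the other members with a median Pearson r of 0.981, and 69 of 73 members had an r above 0.9. The 12 points share libraries and depth, so this is a description only. Of these members, 54 were higher in each band than in the one below it in all 3 libraries. Neither the r nor this order was computed for other genes, so they do not set the members apart. Of all genes tested, 53.8% in control, 54.1% in young and 55.4% in old were also higher by 1.5 times in the highest band. The lowest r was that of Mrpl52 (0.628), followed by Mrpl10 (0.879) and Mrps15 (0.885).

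**Figure D3:**
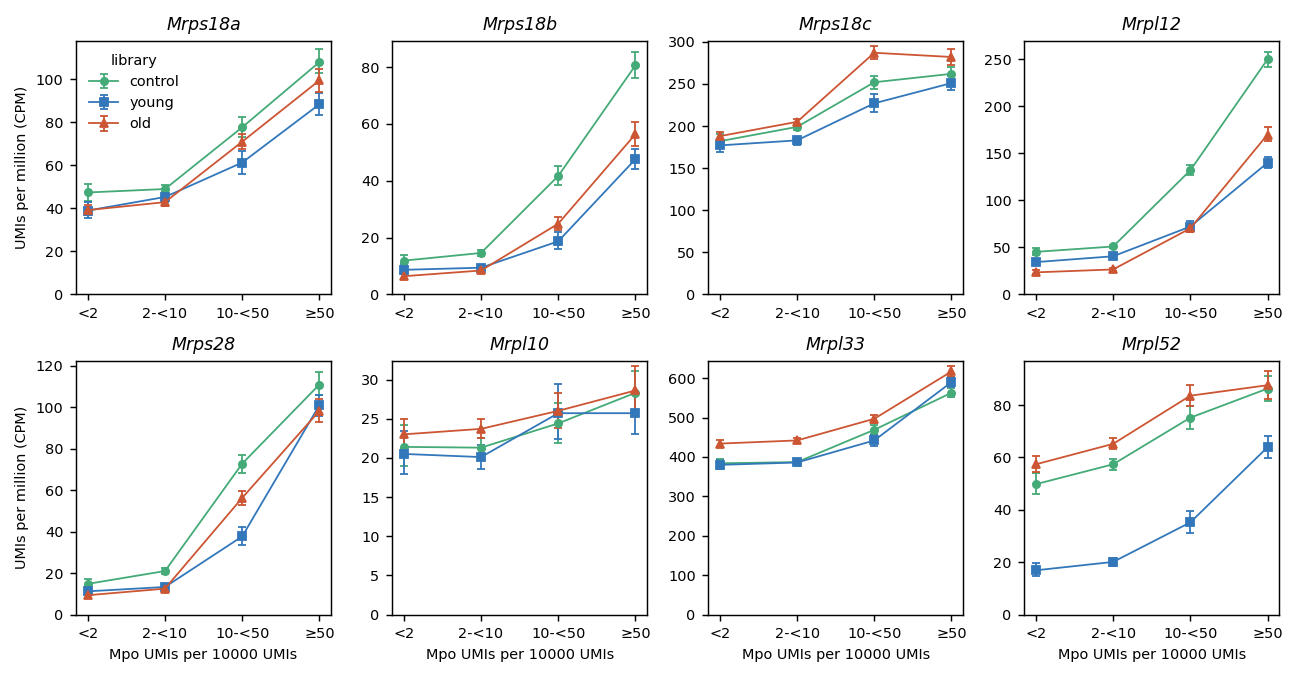
CPM of 8 members in the 4 bands of Mpo (x axis, UMIs per 10000 UMIs of the cell) for the control, young and old library, each panel with its own y axis from 0. Bars are exact 95% Poisson intervals of counting error. Mrps18b, Mrpl12 and Mrps28 are several-fold higher with more Mpo, Mrpl10 hardly so, and Mrpl52 in young lies below both other libraries in each band.

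Mrpl52, a large-subunit protein without a bacterial counterpart, was the member in which 1 library stood apart. It had 63.8 CPM in control, 30.7 in young and 68.9 in old. In young it had 16.9, 20.1, 35.2 and 63.9 CPM from the lowest to the highest band (191, 678, 295 and 921 UMIs). Control had 49.8, 57.4, 75.2 and 86.3 CPM and old had 57.4, 65.2, 83.6 and 87.6. The 2 libraries of 3 months thus lay 2.08-fold apart, whereas old and control lay 1.08-fold apart. The gap between young and the others was widest in the lowest band, at a log2 ratio of old over young of 1.76 (1.55 to 1.99), and smallest in the highest, at 0.45 (0.33 to 0.58). No annotated gene overlaps Mrpl52.

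Between whole libraries the members differed little. In old over young the median log2 ratio was -0.027 over 71 members, with 1 member higher by 1.5 times (5.0% of 5596 genes) and 0 lower (10.3%). In old over control it was -0.23 over 73 members, with 0 higher (5.35% of genes) and 6 lower (8.76%). In control over young it was 0.19 over 73 members, with 2 higher (2.48%) and 0 lower (3.70%). The medians of all genes tested were -0.085, -0.077 and -0.0099. The share of members past the limit was below that of all genes in each comparison and direction, except for the 2 members (2.74%) higher in control over young. Over all 77 members with no minimum the medians were -0.031, -0.25 and 0.20.

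The unit decided the direction of 2 of these medians. As UMIs per cell, the members' median was 0.25 in old over young, 0.10 in old over control and 0.13 in control over young, and that of all genes 0.19, 0.25 and -0.067. Among all genes past 1.5 times, the share of higher ones went from 32.6%, 37.9% and 40.1% to 74.3%, 89.6% and 27.9%. Relative to the median of all genes, the members stood at 0.057, -0.15 and 0.20 in both units. This holds by construction, since the change of unit shifts the log2 ratio of every gene alike. With the 4 bands given equal weight, the median of old over young was 0.12. Old held 8.70% of its cells in the highest band, control 12.9% and young 18.3%.

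The 6 members below control in old by 1.5 times were Mrpl38 (5.90 against 12.3 CPM), Mrpl12 (48.0 against 94.8), Mrps18b (15.7 against 29.0), Mrps25 (31.7 against 54.6), Mrps15 (72.5 against 118) and Mrps28 (28.0 against 42.7). Of these, Mrpl38, Mrpl12, Mrps18b and Mrps28 were also among the 5 with the steepest course over the bands. Each of them was also lower in old than in control within the lowest and within the highest band. The gap in the highest band was 98.3 against 111 CPM for Mrps28 and 170 against 250 for Mrpl12. Young lay between old and control for all 6, and none of them passed 1.5 times in old over young, where Mrpl38 was under 10 CPM in both libraries. The lowest in old over young were Mrps15 (72.5 against 100 CPM), Mrps25 (31.7 against 42.7) and Mrpl12 (48.0 against 64.6).

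In old over young, 27 of the 77 members stood above 0 and 50 below, and in old over control 11 and 66. With at least 10 CPM in either library, 26 of 71 members were above 0 in old over young, and 2223 of 5596 genes. In old over control these were 11 of 73 members and 2246 of 5454 genes. Between the libraries of 3 months, control over young, 67 of the 77 members stood above 0 and 10 below. With the same minimum these were 63 of 73 members above 0, and 2660 of 5561 genes. Mrpl4, a large-subunit protein with a bacterial counterpart, had 28.2 CPM in control, 28.4 in young and 33.7 in old. Its interval in old over young (0.17 to 0.33) and in old over control (0.19 to 0.33) excluded 0, and the 2 libraries of 3 months differed by a log2 ratio of -0.0099 (-0.095 to 0.075). Mrps9 had 28.8, 31.1 and 34.0 CPM and Mrpl33 427, 435 and 467. These differences were under 1.5 times, and no member passed that limit in old over both other libraries.

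The libraries of 3 months differed in other members. Mrps18b had 29.0 CPM in control and 18.5 in young, and Mrps10, a small-subunit protein with a bacterial counterpart, had 38.4 and 25.8. Mrps35 (17.1 against 19.4 CPM), Mrps9 (28.8 against 31.1) and Mrpl14 (99.4 against 107) had the lowest ratios of control over young. In the order of levels, control was the highest library for 60 of the 77 members. Old lay between control and young for 16, above both for 11 and below both for 50. These orders were not counted over all genes.

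Within the bands, the members of old lay close to young in the lower bands and mostly between young and control in the higher ones. The bands are wide and do not match the libraries in Mpo or maturation. In the highest band Mpo stood at 8617 CPM in control, 9747 in young and 7597 in old. In the lowest band Retnlg stood at 665, 978 and 2455 CPM. The median log2 ratio of old over young was -0.059, 0.026, 0.22 and 0.17 from the lowest to the highest band. For old over control it was -0.21, -0.15, -0.10 and -0.12, and for control over young 0.14, 0.18, 0.33 and 0.29. As UMIs per cell, old over control was 0.15, 0.21, 0.30 and 0.13, of the other sign in each band. The number of members between the levels of control and young was 20, 30, 52 and 42 of 77 for old, which was not counted over all genes.

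The share of members past 1.5 times in either direction was below that of all genes in each band, apart from control and young in the third band. Between old and young they were 3 of 64, 2 of 67, 3 of 72 and 0 of 73 members from the lowest to the highest band, where 18.8%, 15.4%, 14.3% and 13.7% of all genes tested passed. Between old and control they were 5 of 67, 5 of 70, 3 of 73 and 2 of 76, against 16.8%, 13.1%, 13.2% and 9.61%. Between control and young they were 2 of 67, 3 of 70, 14 of 73 and 8 of 76, against 6.62%, 6.00%, 11.8% and 12.2%. The largest share was between the libraries of 3 months in the third band, with 14 of 73 (19.2%), all of them higher in control. Mrps18b (log2 ratio 1.16), Mrpl52 (1.10), Mrpl38 (1.01), Mrps10 (1.0) and Mrps28 (0.95) were the farthest apart there.

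**Figure D4:**
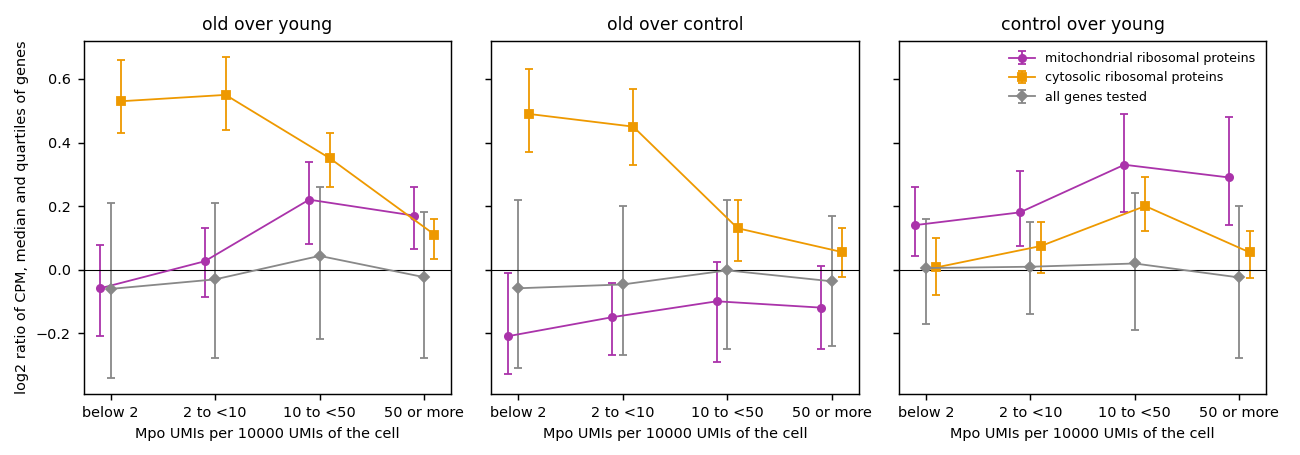
Median log2 ratio of CPM between libraries in each band of Mpo (x axis, UMIs per 10000 UMIs of the cell) for mitochondrial ribosomal proteins, cytosolic ribosomal proteins and all genes that reached 10 CPM on at least 1 side, with bars from the lower to the upper quartile of genes. In the lowest band cytosolic ribosomal proteins stand at 0.53 in old over young and 0.49 in old over control and mitochondrial ones at -0.059 and -0.21, while in control over young both lie between 0.0067 and 0.14.

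Cytosolic ribosomal proteins took another course between the libraries. In old over young their median log2 ratio was 0.53, 0.55, 0.35 and 0.11 from the lowest to the highest band, and in old over control 0.49, 0.45, 0.13 and 0.055. In control over young it was 0.0067, 0.074, 0.20 and 0.054. In the lowest band, 78 of 79 were above both other libraries in old, and 28 and 24 passed 1.5 times over young and control. Of all genes tested, 18.8% and 16.8% passed that size in either direction, and 7.58% were higher by it in old over young. Of the 77 members, 11 were above both other libraries in old in that band and 46 below both. All genes were not counted as above or below both other libraries.

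Mrpl12 showed how a member could change place between bands. In the lowest band old had 23.5 CPM, young 34.4 and control 45.3, and the log2 ratio of old over young was -0.55 (-0.73 to -0.36). In the third band old and young were close, at 70.3 and 72.2 CPM (-0.040, -0.18 to 0.10). In the highest band old had 170 CPM and young 140 (0.28, 0.19 to 0.37), with control above both at 250. Mrps15 was lower in old than in both other libraries in each band, with a log2 ratio of old over young of -0.65 in the lowest and -0.19 in the highest band.

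The lowest band itself held unlike cells. Maturing cells, with 10 or more UMIs of Retnlg and Mmp8 per 10000, were 7.15% of it in control, 14% in young and 42.4% in old. Dividing cells, with 5 or more UMIs of 10 mitosis genes per 10000 and not maturing, were 69.8%, 68.4% and 48.0%. The rest, neither maturing nor dividing, were 23.1%, 17.6% and 9.66%. The members' summed level was 4551 CPM in dividing and 3355 in maturing cells in control, 4061 and 3308 in young, and 4218 and 3239 in old. Per cell these were 43.5 and 19.6 UMIs in control, 41.9 and 21 in young, and 54.8 and 30.3 in old. In the rest the members held 3411 CPM in control, 3251 in young and 3233 in old, close to their level in maturing cells. Dividing cells were also deeper, with a median of 9626.5 UMIs against 5467 in maturing cells in control. In young these medians were 10451 and 5603, and in old 13032 and 8847.5. The part of depth was not tested. Within dividing cells old thus stood between young and control, and within maturing cells it stood below both with intervals that overlapped (3202 to 3275, against 3201 to 3417 and 3209 to 3506). Cytosolic ribosomal proteins were higher in old in each kind, at 98573 CPM in dividing cells against 65796 in control and 63734 in young, and at 72087 in maturing cells against 45326 and 53317.

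Most genes of the other parts of the mitochondrial translation system were at low levels, and many reached 10 CPM in the highest band alone, so their band ratios are given over all listed genes with no minimum. The 6 mitoribosome proteins with other symbols (Dap3, Ptcd3, Chchd1, Gadd45gip1, Aurkaip1 and Ict1) had a median log2 ratio of 1.13 in control, 1.06 in young and 1.26 in old, and all 6 were above 0 in each library. Gadd45gip1 had the largest, with 39.5 and 176 CPM in the lowest and highest band in control, 31.5 and 122 in young, and 24.6 and 137 in old. Ict1 had the smallest, with 64.9 and 90.4 CPM in control.

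The 15 mitochondrial translation factors had medians of 1.68, 1.51 and 1.63, and 14, 14 and 15 of them were above 0. In control 8 of the 10 that reached 10 CPM did so in the highest band alone. Lrpprc, an RNA-binding protein that stabilizes mitochondrial mRNAs, had 3.73 and 18.7 CPM in control, 2.83 and 13.7 in young, and 2.52 and 13.2 in old. Oxa1l, which inserts proteins into the inner membrane, had the smallest mean ratio of those tested in all 3 libraries, with 7.54 and 15.1 CPM in control. The release factor gene Mtrf1l was the gene below 0, with 8.35 and 8.28 CPM in control and 10.2 and 8.33 in young. Its interval did not lie below 0 in either library.

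The 17 aminoacyl-tRNA synthetases of mitochondria had medians of 1.61, 1.57 and 1.64, all above 0, though none reached 10 CPM in the lowest band of any library and 6 did in the highest. The largest mean ratio among these 6 was that of Tars2, with 3.65 and 15.1 CPM in control, and the smallest that of Fars2, with 4.54 and 10.4. The 21 assembly and rRNA modification factors had medians of 0.90, 1.16 and 1.12, with 21, 20 and 21 above 0. Noa1 among them had 8.52 and 24.8 CPM in control, 5.4 and 16.1 in young, and 4.32 and 18.3 in old, and Mterf4 had 14.1 and 15.8 in control, 13.4 and 15.5 in young, and 13 and 13.8 in old. Rbfa stood below 0 in young, with 117 and 115 CPM, though its interval did not lie below 0.

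The 9 genes for mitochondrial DNA transcription and replication had medians of 1.64, 1.19 and 1.46, with 8, 8 and 9 above 0, and 2 or 3 of them reached 10 CPM in both bands. Tfb2m, a mitochondrial transcription factor, had 3.08 and 20.8 CPM in control, whereas Polg, the mitochondrial DNA polymerase, had 19.1 and 15.4. The 13 protein genes of the mitochondrial genome, the products of the mitoribosome, had medians of 1.60, 1.74 and 1.87, all above 0. In mt-Nd1 the lowest and highest band had 713 and 3392 CPM in control, 524 and 2479 in young, and 395 and 2787 in old, and in mt-Co1 they had 2541 and 3741, 2463 and 4409, and 2592 and 4010. Mitosis genes had ratios of the other sign, with medians of -0.78, -0.53 and -0.35. Among them Nusap1 had the lowest mean ratio, with 160 and 36 CPM in control, and Cdk1 the highest, with 170 and 132.

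Between libraries, the median log2 ratio of the genes of the mitochondrial genome was -0.37 in old over young and -0.56 in old over control, beside -0.027 and -0.23 for the members and 0.20 and 0.18 for cytosolic ribosomal proteins. In control over young these were 0.18, 0.19 and 0.018. These lists share the same libraries and the same total.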

How the data were processed

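The authors sorted CD133+ bone marrow cells, pooled 3 mice per library, prepared Chromium 3′ libraries, and used STAR for alignment and Cell Ranger 2.1.0 for counting on mm10, per the labels. The deposited matrices hold raw counts, whole UMIs per gene and cell, with no normalization. How reads on the other strand or shared by 2 genes were treated is not given in the sources used here.

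The limits of the study's methods were applied to the counts (at least 200 genes, at most 20% mitochondrial UMIs, the 5th to 95th percentile of UMIs, taken over control alone and over young and old together). Doublets were not called, and cells with markers of another blood cell type (at least 3 markers and 5 UMIs) were set aside. UMIs were summed per library or band and scaled to 1000000 UMIs (CPM), from 67882674 to 118561266 UMIs per library, so that 3 counts stand for 0.0253 to 0.0442 CPM. Each sum has an exact Poisson interval and each ratio a conditional binomial one, both at 95%, which cover counting error only, since UMIs of 1 pool are not independent samples. With 1 library per group no test was made. Genes with at least 10 CPM on either side were counted past a ratio of 1.5. Members are chosen by symbol, and the members, bands, lists, markers and limits were chosen with earlier results of these data known. Named members are the 5 highest in level, the 5 highest and 5 lowest in band ratio, the 3 highest and 3 lowest in each library ratio, any past 1.5 times in old over both others, the 3 lowest in correlation with the other members, the Mrps18 paralogs and Mrps36, each with at least 10 CPM in a library. Of the other lists these are the highest and lowest in mean band ratio among genes tested in all 3 libraries. Members named outside this rule are those given with gene neighbours or subunits and Mrps2, Mrpl53, Mrps27 and Mrps6, which missed 10 CPM. Mtrf1l and Rbfa were chosen after their values were seen. The minimum was dropped for the band ratios of the other mitochondrial lists, also after their values were seen.

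Alternatives changed the cell limits, the cells set aside, the cells of highest UMI count, the total, the weights, the minimum of CPM, the limit of size and the bands (other edges, Elane, thinning to 3000 UMIs). The ratios and the limit were tested on simulated data. The tools were matplotlib 3.10.9, pandas 2.3.3, scipy 1.17.1 and numpy 2.4.6 under Python 3.11.15. Protein sequences were not used here.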

Additional observations from a re-analysis of the deposited data

Results flagged for a closer look

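The summed members stood on opposite sides of 0 in old over young at the ends of the Mpo range. Their log2 ratio of CPM was -0.038 (-0.054 to -0.022) in the lowest band and 0.16 (0.15 to 0.18) in the highest. Both intervals cover counting error only, each side is 1 library, and the difference between the bands was not tested. In old over control the same sum stood at -0.18 and -0.12, on 1 side in both bands. Between the libraries of 3 months, control over young, it stood at 0.14 (0.12 to 0.16) in the lowest and 0.28 (0.27 to 0.29) in the highest band. As UMIs per cell, old over young did not turn. The members held 42.5 UMIs per cell in old and 35.5 in young in the lowest band, and 130 and 95.3 in the highest. The median log2 ratio of all genes tested in old over young was -0.061 in the lowest band, beside -0.059 for the members. In the third band these were 0.043 and 0.22.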

How the results depend on the processing

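Of the medians of the members, 199 of 228 stayed within 0.1 on the log2 scale and of the same sign over the alternatives, and of those of cytosolic ribosomal proteins 190 of 228. Both shares include cases that could not differ. The limit of size does not enter a median, so changing it left every median as it was. The other minima of CPM left the medians of cytosolic ribosomal proteins unchanged, since these genes lie far above them. The counts past the limit stayed within 1.5 times in 126 of 144 cases. All 3 band medians of the members stayed above 0 in every alternative, from 0.42 to 1.84.

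With the 50 leading genes left out of the total, 39 members in control, 29 in young and 44 in old were higher by 1.5 times between the bands (22.9%, 20.9% and 26.3% of all genes), and 1 was lower in old over young. The limit of 2 times left 45 between the bands in young (32.5% of all genes), 1 higher in control over young and 1 lower in old over control. With at least 50 CPM, 1 member was higher in control over young and 3 were lower in old over control, with fewer members tested by construction, and with at least 1 CPM, 1 was lower in old over young. In UMIs per cell, 1 member was higher and 2 were lower in old over control. Higher in control over young were 5 members over all deposited cells, 6 with the 4 bands weighted equally, 1 with cells weighted equally, 1 without the 10% of cells with the most UMIs, and 0 with cells of other blood markers kept, where 1 was lower in old over young. Over all genes, the shares in these settings were 0.432% to 4.09% higher in control over young, 1.45% to 5.85% lower and 18% higher in old over control, and 14.7% to 18.9% lower in old over young.

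These medians changed sign. For members in old over young they were 0.030 over all deposited cells, 0.021 with percentiles within each library, 0.25 in UMIs per cell and 0.12 with the bands weighted equally. In the lowest band the same ratio was 0.24 in UMIs per cell. In the second band it was -0.089 with cells of other blood markers kept, -0.10 without the 50 leading genes and -0.036 with band edges of 1, 5 and 25. In old over control, UMIs per cell gave 0.10 over all bands and 0.15, 0.21, 0.30 and 0.13 from the lowest to the highest band. For cytosolic ribosomal proteins in control over young, the median was -0.073 with cells of other blood markers kept, -0.048 without the 10% of cells with the most UMIs, -0.039 in UMIs per cell and -0.0054 with cells weighted equally. In the lowest band it was -0.0057 over all deposited cells, -0.30 with cells of other blood markers kept, -0.063 in UMIs per cell and -0.073 in bands of Elane, and in the second band -0.15 with those cells kept. The cause of these changes was not tested, apart from the unit itself. No paired analysis was possible because each group is 1 library. Leaving out a replicate was not possible for the same reason. Depth limits the members under 10 CPM most, and replicates were lacking throughout.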

Other observations

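Among the cells set aside for markers of other blood cells, the young library held enough of 4 kinds for a value, and the old library of 1. The members together held 7358 CPM in 421 young cells with monocyte markers and 7737 CPM in 66 such old cells, compared with 5097 and 4984 CPM in the cells used of these libraries. They held 7578 CPM in 116 young cells with B progenitor markers, 6630 in 70 with NK and T cell markers and 6274 in 78 with dendritic cell markers. All of these lay above the lowest band of young (3882) and below its highest (8019). Mitochondrial UMIs per 100 cytosolic UMIs were 4.15 in the young and 3.65 in the old cells with monocyte markers, and 2.84 in the cells with NK and T cell markers. Mrpl33 was the highest member in each kind. It had 929 CPM in the young and 939 CPM in the old cells with monocyte markers, and 346 to 464 CPM in the other 3 kinds of young cells.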
